A study of Mus musculus with 6 samples.

Results

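Here 46 receptors of cytokines and growth factors in multipotent progenitors of mouse bone marrow were examined, chosen as a fixed list of genes and read from whole-transcript arrays. Of the 46, 43 had a feature of their own in the array's probe-to-gene table, out of 19938 genes with a single-gene feature, and each of the 43 was read by exactly 1 feature. Il2rg, Il1r1 and Il1rl1 were not named there and were not analysed here. The receptors were grouped by class into tyrosine kinases (7 measured), users of the common beta chain (5), users of the common gamma chain and their partners (9), the gp130 family and its relatives (9), interferon and IL-10 receptors (6), the IL-1 family (3), tumour necrosis factor (TNF) receptors (2) and 2 others, Epor and Il17ra.

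The compared groups were 3 arrays labelled Lxn-/-, from C57BL/6 mice with a deletion of exons 2 to 4 of the latexin gene that removes the protein, an inhibitor of carboxypeptidases, and 3 arrays labelled wild type (WT), from C57BL/6 mice with the intact gene. All donors were labelled female and 8 to 12 weeks old, and no treatment is named. The cells were sorted as lineage-negative cells positive for Sca-1, c-Kit, CD34 and Flt2, as the series text spells it. Each array held RNA of about 100000 cells pooled from 10 to 20 mice, so an array is a pool and says nothing about single mice. Where it gives that number the series text speaks of long-term stem cells, whereas every array's own labels say multipotent progenitors. The labels do not say whether the deletion is restricted to blood cells, and the comparison asks what differs in these progenitors without latexin. Values are log2 expression values, levels are means ± SD with n = 3 arrays per group, and changes are log2 differences, labelled Lxn-/- minus WT, with the standard error (SE) from limma.

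Cytokine receptors pass signals that keep blood progenitors alive, make them divide and direct them towards particular lineages. Receptor tyrosine kinases such as KIT and FLT3 phosphorylate their own tails, whereas cytokine receptors of the class I and class II types carry no kinase and use bound Janus kinases (JAK) to activate STAT transcription factors. Many of them pair a chain that binds the ligand with a shared chain that signals, and IL-1 family and TNF receptors signal instead through adaptor proteins to NF-kB.

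Sex-linked genes went against the labels in arrays 1 and 3 labelled Lxn-/-. Xist, the RNA that silences an X chromosome in female cells, was 6.86, 13.17 and 5.85 in arrays 1, 2 and 3 labelled Lxn-/-, against 13.13 to 13.23 in WT. Eif2s3y, a Y-linked gene, was 8.57, 3.83 and 9.36 there, against 3.68 to 3.97 in WT. Lxn itself was 8.03, 8.53 and 8.61 in the arrays labelled Lxn-/- and 8.56, 8.70 and 8.58 in WT, and where its probes lie relative to the deleted exons was not analysed here. It therefore checks no label, and the groups are called by their labels below, with results also given without arrays 1 and 3. On the first principal component, with 48.1% of the variance, these arrays lay at 29.5 and 27.8, and the other 4 at -8.1 or below. Of the sort markers, Cd34 was 13.40 in the arrays labelled Lxn-/- and 13.41 in WT, and Kit and Flt3 are described with their class. A list of 8 marker genes of mature blood lineages, chosen here, had a mean level of 7.45 to 7.63 in the arrays labelled Lxn-/- and 7.45 to 7.78 in WT. Single genes of that list had means over the 6 arrays from 6.02 to 9.75.

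Signal on these arrays has no zero, so the features of 1035 olfactory receptor genes, which blood cells are not known to use, served as a guide to the reading of a silent gene. Their 95th percentile was a log2 value of 7.20. Of the 43 receptors, 34 had a mean over the 6 arrays above it. The other 9 were Pdgfra, Il5ra, Il2ra, Il2rb, Il9r, Il13ra1, Lifr, Osmr and Lepr, with means in the range of silent genes, although Lifr exceeded the guide in arrays 1 and 3 labelled Lxn-/-. Dim features also ran lower as a whole in the arrays labelled Lxn-/-. The median change was -0.135 over the 9456 tested features at or below the guide and 0.047 over the 13954 above it.

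No receptor passed an adjusted p of 0.05 in limma, and neither did any of the 23410 tested features (0%). At an unadjusted p under 0.05 there were 4 receptors, 9.3% of 43, against 14.3% of all tested features. Il6st, Csf1r and Lifr had the higher means in the arrays labelled Lxn-/-, and Il3ra the lower. By direction, 3 of 43 were higher, where 5.06% of features were, and 1 was lower, where 9.23% of features were. The receptors as a group thus did not stand above the background of this comparison. Their median change was 0.007, with 22 positive (51.2%) and 21 negative, beside a median of -0.038 and 42.2% positive over all features. A change of at least 0.5 in either direction was measured for Csf1r and Lifr, whereas 1.25% of features reached it, and Lifr lay below the guide in all WT arrays.

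**Figure D1:**
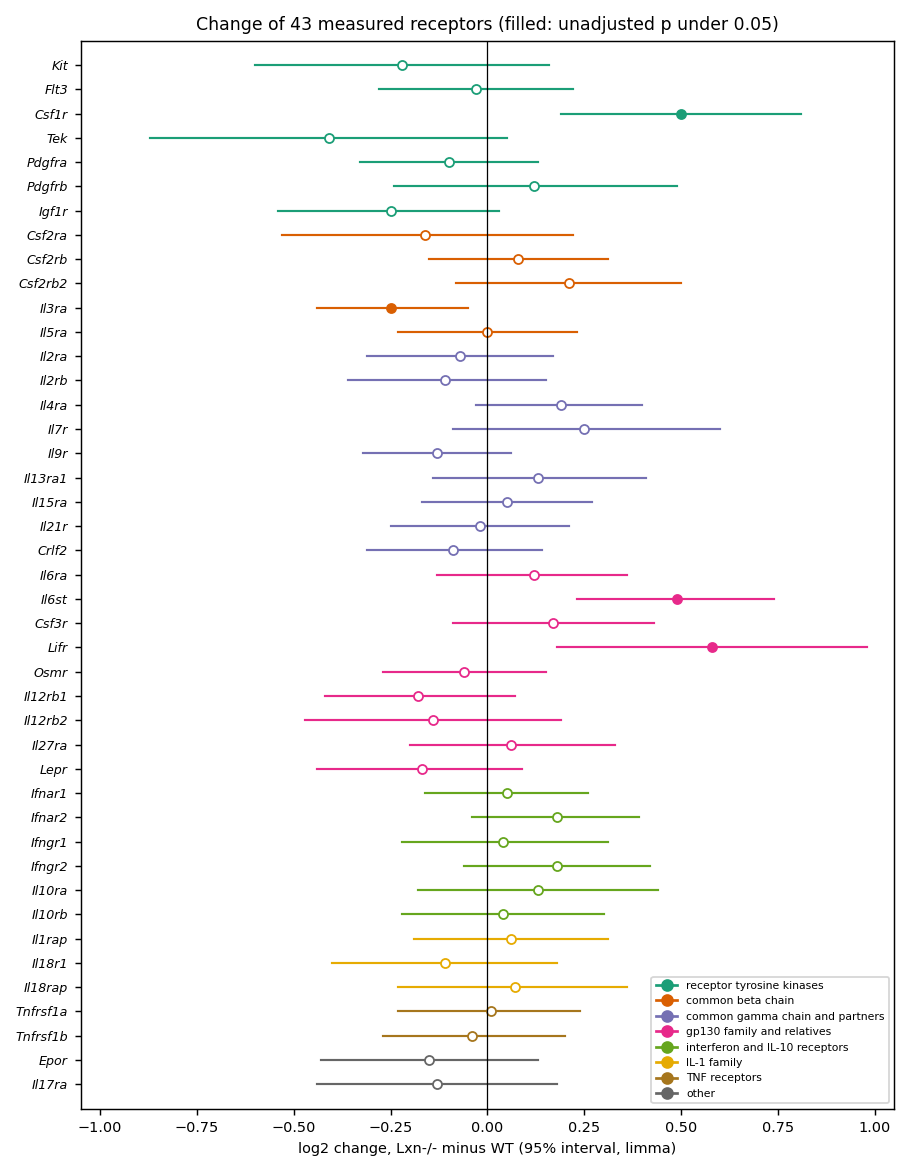
Log2 change of each of the 43 measured receptors, arrays labelled Lxn-/- minus WT, on the horizontal axis, with its 95% interval from limma (3 arrays per group) and colours for receptor classes. Only Csf1r, Il3ra, Il6st and Lifr, drawn filled, have intervals that leave out 0.

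The precision of 6 arrays set what could be seen. The 95% interval of a receptor's change extended by 0.26 on either side at the median, from 0.19 for the narrowest to 0.46 for the widest. For 34 of the 43 receptors the whole interval lay within 0.5 of no change, and for all 43 it lay within 1. The typical SD of a receptor was 0.147 among the arrays labelled Lxn-/- and 0.123 among the WT arrays, and over all tested features it was 0.125 and 0.104.

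The gp130 family held 2 of the 4 receptors with an unadjusted p under 0.05. Il6st encodes gp130, the signalling chain that the receptors of IL-6, leukemia inhibitory factor (LIF), oncostatin M and IL-27 share. Its values were 10.76, 10.84 and 10.73 in arrays 1, 2 and 3 labelled Lxn-/-, against 10.51, 10.12 and 10.24 in WT arrays 1, 2 and 3. All 3 values in the arrays labelled Lxn-/- lay above all 3 WT values. The change of 0.49 (SE 0.11), a 1.40-fold higher mean, had the smallest unadjusted p of the receptors (0.00196) and an adjusted p of 0.340. It was 0.55 without arrays 1 and 3 labelled Lxn-/-, where the lone remaining array was taken to vary like the WT arrays.

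Lifr encodes the LIF receptor chain that pairs with gp130. Its log2 values were 7.76, 6.95 and 7.40 in arrays 1, 2 and 3 labelled Lxn-/-, against 6.80, 6.82 and 6.75 in WT. The groups did not overlap, but array 2 lay only slightly above the WT arrays, and it and all WT values were below the signal guide. The measured difference was 0.58 (SE 0.18, unadjusted p 0.0097, adjusted p 0.340), and no fold is given because the WT readings lie in the range of silent genes. The 2 arrays with the higher Lifr were those with Y-linked signal. Without array 2 labelled Lxn-/- the change was 0.79 with an adjusted p of 0.0182, the only receptor to pass in any of the fits that left out arrays. That fit set only the 2 arrays with Y-linked signal against WT. In it 145 of all tested features (0.619%) passed, beside 0 with all arrays. Without arrays 1 and 3 the change of Lifr was 0.16.

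Upstream sequences are shown for 3 of the 4 receptors at an unadjusted p under 0.05, both chains of the LIF receptor, with higher means, and the alpha chain of the IL-3 receptor, described below, with a lower one. That of Csf1r was not used here. Each line is the 250 bases before an annotated transcription start, 5′ to 3′, from RefSeq promoters of build GRCm38.p6. The windows are chr13:112463820-112464069 for Il6st, chr15:7129322-7129571 and chr15:7140292-7140541 for both starts that the table gives for Lifr, and chr14:14346245-14346494 for Il3ra, all on the + strand. Capitals mark matches, on either strand, to the short motifs named after the sequences.
Il6st: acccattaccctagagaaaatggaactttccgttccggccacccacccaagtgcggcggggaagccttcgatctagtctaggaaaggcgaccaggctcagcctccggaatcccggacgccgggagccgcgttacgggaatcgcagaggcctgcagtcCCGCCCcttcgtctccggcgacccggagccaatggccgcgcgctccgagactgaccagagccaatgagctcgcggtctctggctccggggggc
Lifr, start 1: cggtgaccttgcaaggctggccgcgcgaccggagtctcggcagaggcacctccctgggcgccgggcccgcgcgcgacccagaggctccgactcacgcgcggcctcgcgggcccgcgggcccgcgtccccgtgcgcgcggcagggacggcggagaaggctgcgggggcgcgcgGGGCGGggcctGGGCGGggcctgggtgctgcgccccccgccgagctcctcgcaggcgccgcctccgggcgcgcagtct
Lifr, start 2: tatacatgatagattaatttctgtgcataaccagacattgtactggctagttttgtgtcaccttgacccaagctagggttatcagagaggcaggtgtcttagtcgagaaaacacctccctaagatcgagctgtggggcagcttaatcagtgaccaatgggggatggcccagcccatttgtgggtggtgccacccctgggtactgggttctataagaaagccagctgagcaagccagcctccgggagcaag
Il3ra: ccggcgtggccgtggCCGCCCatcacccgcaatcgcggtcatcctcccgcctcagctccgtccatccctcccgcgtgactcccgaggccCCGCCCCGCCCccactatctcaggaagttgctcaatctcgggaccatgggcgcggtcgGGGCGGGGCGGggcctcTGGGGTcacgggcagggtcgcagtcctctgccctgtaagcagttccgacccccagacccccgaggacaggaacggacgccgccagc

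The windows differ in base composition, with 66.0% G and C for Il6st, 82.4% and 50.8% for the starts 1 and 2 of Lifr, and 72.4% for Il3ra, beside a median of 52.4% over all 32851 windows. Of 5 motifs searched on both strands, only those of SP and KLF factors (GGGCGG) and of RUNX factors (TGNGGT) had a match in these windows. GGGCGG was found once upstream of Il6st, at 93 bases before the start, and upstream of start 1 of Lifr at 78 and 67 bases. The Il3ra window held 5 matches to it, of which 2 pairs overlap, and 1 match to TGNGGT at 86 bases. The second Lifr window held no match to any of the motifs. A match is only a run of letters and does not show binding.

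Over the receptors, 34 of the 43 measured had a window that was used here. Windows on chromosome 18, where Csf1r and Pdgfrb lie, were left out for the receptors but kept among all windows. The STAT factor motif TTCNNNGAA was in the windows of 7 of the 34 (20.6% of genes, 17.5% of their 40 windows), against 7.0% of all windows. Those 7 were Csf2rb2, Ifnar2, Il12rb2, Il18r1, Il7r, Tnfrsf1a and Tnfrsf1b. The PU.1 and ETS factor motif GAGGAA was in 35.0% of the receptors' windows and 23.3% of all windows, and the GATA factor motif GATAAG was in 10.0% and 6.5%. For the RUNX motif the shares were 47.5% of the receptors' windows and 40.1% of all, and for the SP and KLF motif 47.5% and 32.7%. The receptors' windows had a median of 59.0% G and C, so their composition differed from that of all windows too. Epor, a known target of the erythroid GATA factor in mouse, was among the 4 genes with that motif of GATA factors, with Csf2rb2, Il6ra and Il9r.

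The remaining 7 members of the gp130 family and its relatives had changes from -0.18 to 0.17, none with an unadjusted p under 0.05. Il6ra, the alpha chain that presents IL-6 to gp130, had a change of 0.12 (SE 0.11), and Osmr, the oncostatin M chain, one of -0.06 (SE 0.09). Lifr and Osmr are direct neighbours on chromosome 15, and the proteins of both pair with gp130. Csf3r, the receptor of granulocyte colony-stimulating factor, was 10.72, 10.97 and 11.07 in the arrays labelled Lxn-/-, against 10.89, 10.70 and 10.65 in WT, with a change of 0.17 (SE 0.12). Il27ra, the other chain of the IL-27 receptor, was at 0.06 (SE 0.12). Both chains of the IL-12 receptor had negative changes, -0.18 (SE 0.11) for Il12rb1 and -0.14 (SE 0.15) for Il12rb2. Il12rb2 was 8.60 in array 1 labelled Lxn-/-, against 9.22 and 8.94 in arrays 2 and 3 and 9.03 to 9.13 in WT, so array 1 lay lowest and array 3 slightly below the WT range. Lepr, the leptin receptor, was below the guide, at 5.15 in the arrays labelled Lxn-/- and 5.33 in WT.

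**Figure D2:**
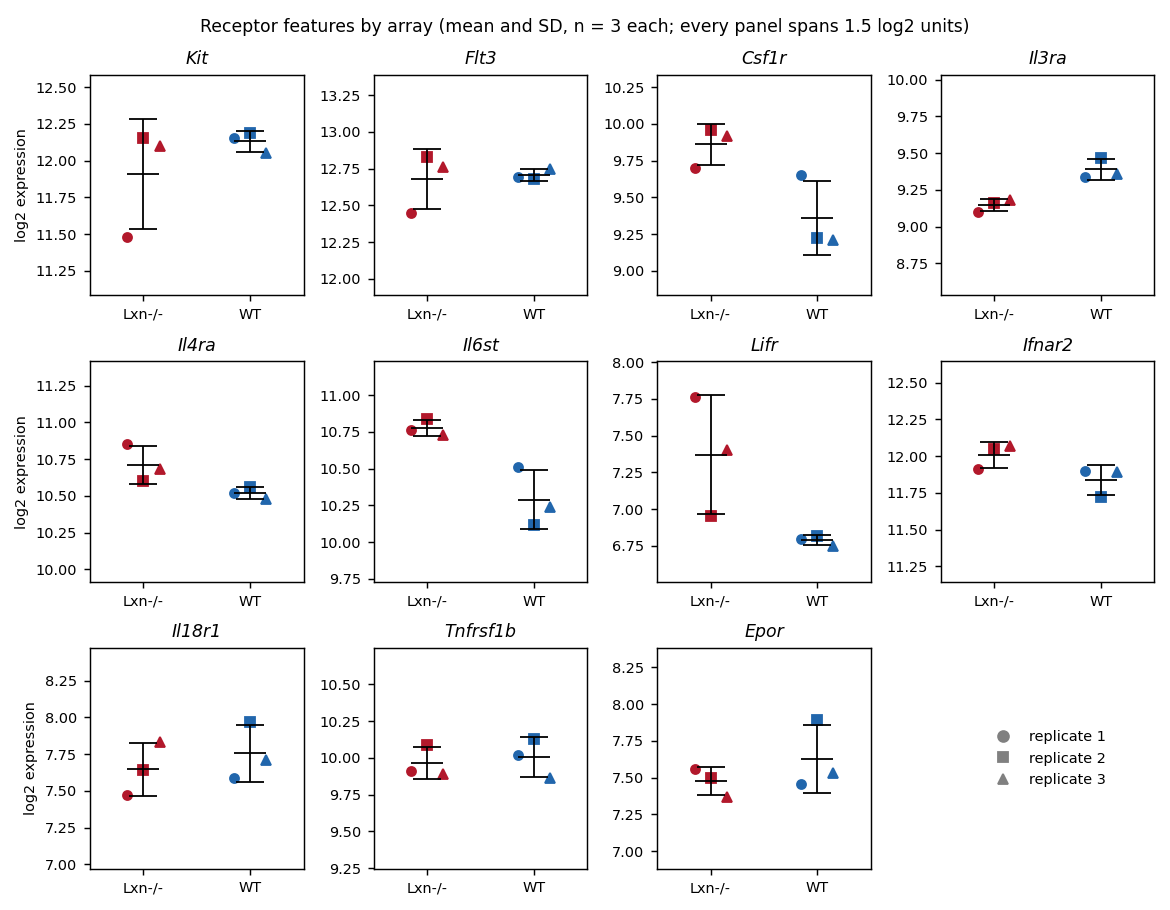
Log2 expression of 11 receptors in each array, labelled Lxn-/- left of WT, with the mean and SD of 3 arrays per group and every panel spanning 1.5 log2 units. Il6st, Csf1r, Lifr, Il4ra and Ifnar2 do not overlap between groups on the higher side and Il3ra on the lower, while Kit and Flt3 have their lowest value in array 1 labelled Lxn-/-.

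Among receptor tyrosine kinases, Csf1r had the higher mean in the arrays labelled Lxn-/-. It encodes the receptor of macrophage colony-stimulating factor, which drives monocyte and macrophage development. Its values were 9.70, 9.96 and 9.92 in arrays 1, 2 and 3 labelled Lxn-/-, against 9.65, 9.22 and 9.21 in WT. The groups did not overlap, though WT array 1 lay within 0.1 of array 1 labelled Lxn-/-. The change was 0.50 (SE 0.14, 1.41-fold, unadjusted p 0.00502, adjusted p 0.340), and 0.60 without arrays 1 and 3 labelled Lxn-/-. Pdgfrb, the neighbouring gene on chromosome 18, which encodes a receptor of platelet-derived growth factor, had a change of 0.12 (SE 0.16).

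Marker lists of macrophages, of dendritic cells and of neutrophil and monocyte precursors did not run the same way. All 9 macrophage markers listed, C1qa, C1qb, C1qc, Cd5l, Adgre1, Vcam1, Mrc1, Axl and Slc40a1, had lower means in the arrays labelled Lxn-/-, 7 of them at an unadjusted p under 0.05, where 9.23% of all features were. Of the 9, C1qc, Cd5l, Adgre1 and Mrc1 lay below the guide, where 1469 of 9456 features were lower at that level. The mean level of the 9 ranged from 7.04 to 7.43 in those arrays and from 7.41 to 7.87 in WT. Of 8 dendritic cell markers, 6 had higher means, and their mean level was 9.26 to 9.36 in the arrays labelled Lxn-/- against 9.13 to 9.23 in WT. Neutrophil and monocyte precursor markers were at 10.71 to 11.10 against 10.61 to 11.10, with 6 of 9 higher. All genes of the dendritic cell and precursor lists lay above the guide, where 62.0% of all features had positive changes. The part of these marker lists in the Csf1r result was not tested. In bulk RNA, fewer cells of a type and less RNA per cell cannot be told apart.

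Kit and Flt3, whose proteins the sort selected for, differed little between groups apart from 1 array. Kit, the receptor of stem cell factor, was 11.48, 12.15 and 12.10 in arrays 1, 2 and 3 labelled Lxn-/-, against 12.15, 12.19 and 12.05 in WT. Its SD was 0.38 in the arrays labelled Lxn-/- and 0.07 in WT, and the change was -0.22 (SE 0.17, adjusted p 0.502). Flt3, which marks progenitors that have begun to lose stem cell potential, was 12.45, 12.83 and 12.76 in the arrays labelled Lxn-/-, against 12.69, 12.68 and 12.75 in WT. Its change was -0.03 (SE 0.11), with a 95% interval from -0.28 to 0.22. Array 1 was the lowest of all 6 arrays for both genes, and array 2 was the highest for Flt3.

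Tek, the angiopoietin receptor TIE2 of stem and endothelial cells, had the lowest change of the 43 receptors at -0.41 (SE 0.20, unadjusted p 0.0744). It was 6.50, 7.33 and 7.24 in the arrays labelled Lxn-/-, against 7.39, 7.62 and 7.29 in WT, values around the signal guide. The groups overlapped, and array 1 lay lowest again. Without array 1 labelled Lxn-/- the change was -0.15, where Lepr was lower at -0.28, and without arrays 1 and 3 it was -0.10. Of 10 long-term stem cell markers, 9 had negative changes, 1 of them (Tgm2) at an unadjusted p under 0.05, and 2 lay below the guide, while 42.2% of all features had positive changes. Their mean level was 7.86, 8.15 and 8.10 in arrays 1, 2 and 3 labelled Lxn-/- against 8.21 to 8.36 in WT, with array 1 lowest. Stromal and endothelial markers were at 7.53 to 7.56 against 7.60 to 7.69, and the part of either list in the Tek value was not tested. Igf1r, the insulin-like growth factor receptor, had a change of -0.25 (SE 0.13, unadjusted p 0.0766), with 10.14, 10.59 and 10.42 in the arrays labelled Lxn-/- against 10.54, 10.78 and 10.61 in WT. Its change was -0.13 without array 1 labelled Lxn-/- and -0.05 without arrays 1 and 3. Pdgfra, next to Kit on chromosome 5, was below the guide at -0.10 (SE 0.10).

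In the common beta chain group, Il3ra was the 1 receptor of the list with a lower mean at an unadjusted p under 0.05. Il3ra encodes the chain that binds IL-3, a cytokine that supports mast cells, basophils and early progenitors. Arrays 1, 2 and 3 labelled Lxn-/- read 9.10, 9.16 and 9.18, against 9.34, 9.47 and 9.36 in WT. The groups did not overlap, and the 3 arrays labelled Lxn-/- lay within an SD of 0.04. The change was -0.25 (SE 0.08, unadjusted p 0.018, adjusted p 0.340), a mean 1.19-fold higher in WT, and -0.23 without arrays 1 and 3 labelled Lxn-/-. All 11 mast cell, basophil and eosinophil markers also had lower means, 4 of them (Mcpt8, Prss34, Fcer1a and Prg3) at an unadjusted p under 0.05, and 3 of the 11 lay below the guide. Over all features 9.23% were lower at that level, and 42.2% had positive changes. The markers' mean level was 7.47, 8.08 and 8.18 in arrays 1, 2 and 3 labelled Lxn-/- and 8.21 to 8.41 in WT, with array 1 lowest. Their part in the Il3ra value was not tested.

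The chains that signal with Il3ra did not share its direction. Csf2rb, the common beta chain of the receptors of IL-3, IL-5 and granulocyte-macrophage colony-stimulating factor (GM-CSF), had a change of 0.08 (SE 0.10). Csf2rb2, its mouse-specific neighbour that serves IL-3 only, was 9.17, 9.03 and 8.87 in the arrays labelled Lxn-/- and 8.71, 9.07 and 8.67 in WT, a change of 0.21 (SE 0.13). The 2 genes are near-identical copies, so probes of either may read both, and their values are uncertain for that reason. Csf2ra, which binds GM-CSF, was 10.09, 10.69 and 10.61 in the arrays labelled Lxn-/- and 10.61, 10.82 and 10.44 in WT, with array 1 again lowest and a change of -0.16 (SE 0.17), which was 0.03 without that array. Il5ra, the eosinophil receptor chain, was below the guide at 5.81 in both groups, with a change of 0.00 (SE 0.10).

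None of the 9 measured users of the common gamma chain and their partners had an unadjusted p under 0.05. Il4ra, which serves IL-4 and IL-13, was 10.85, 10.60 and 10.68 in the arrays labelled Lxn-/-, against 10.52, 10.56 and 10.48 in WT. The groups did not overlap, and the change of 0.19 (SE 0.09) had an unadjusted p of 0.0786. It was 0.12 without array 1 labelled Lxn-/- and 0.08 without arrays 1 and 3. Its neighbour on chromosome 7, Il21r, was at -0.02 (SE 0.10). Il7r, the receptor of lymphoid progenitors, was 9.77, 10.19 and 10.13 in the arrays labelled Lxn-/-, against 10.06, 9.63 and 9.63 in WT. WT array 1 lay between the arrays labelled Lxn-/-, so the groups overlapped, and the change was 0.25 (SE 0.15, 95% interval -0.09 to 0.60). Lymphoid markers had a mean level of 9.18 to 9.40 in the arrays labelled Lxn-/- and 9.29 to 9.38 in WT, with 5 of 9 higher. Crlf2, which pairs with Il7r in the receptor of thymic stromal lymphopoietin, was at -0.09 (SE 0.10). Il9r was 7.10, 7.08 and 7.06 in the arrays labelled Lxn-/- and 7.17, 7.28 and 7.18 in WT, separate but small in difference and below the guide. Il2ra and Il2rb, chains of the IL-2 receptor, and the X-linked Il13ra1 were below the guide too, with changes of -0.07, -0.11 and 0.13. Il15ra had a change of 0.05 (SE 0.10).

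All 6 interferon and IL-10 receptors had positive changes, from 0.04 to 0.18, and none had an unadjusted p under 0.05. Ifnar2, a chain of the type I interferon receptor, was 11.91, 12.05 and 12.07 in the arrays labelled Lxn-/-, against 11.90, 11.72 and 11.89 in WT. The groups did not overlap, with array 1 within 0.1 of WT array 1, and the change was 0.18 (SE 0.09, unadjusted p 0.0952). Its partner Ifnar1 was at 0.05 (SE 0.09). Of the chains of the type II interferon receptor, Ifngr2 was 10.72, 10.78 and 11.04 in the arrays labelled Lxn-/- and 10.72, 10.67 and 10.61 in WT, a change of 0.18 (SE 0.10), and Ifngr1 was at 0.04 (SE 0.12). Ifnar2, Il10rb, Ifnar1 and Ifngr2 lie next to each other on chromosome 16. Relative to the WT mean, the median of the class was -0.12, 0.17 and 0.24 in arrays 1, 2 and 3 labelled Lxn-/-, against 0.01, -0.01 and 0.00 in WT. By this median array 1 ran against the other 2, though Ifnar2 (0.08) and Ifngr2 (0.06) lay above their WT means in it. Ifnar1, Ifngr1, Il10ra and Il10rb lay below theirs in array 1, so their positive sign rests on arrays 2 and 3. Above the guide, 62.0% of all features had positive changes.

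Receptors of the IL-1 family, the TNF receptors and the 2 others had changes between -0.15 and 0.07. Il18r1 and Il18rap, the chains of the IL-18 receptor and neighbours on chromosome 1, were at -0.11 (SE 0.13) and 0.07 (SE 0.13). Il18r1 was 7.47, 7.64 and 7.83 in the arrays labelled Lxn-/-, against 7.59, 7.97 and 7.71 in WT, with overlapping groups. Il1rap, the accessory chain of IL-1 and IL-33 receptors, was at 0.06 (SE 0.11). Tnfrsf1a, the death-domain TNF receptor, had a change of 0.01 with a 95% interval from -0.23 to 0.24. Tnfrsf1b, the other TNF receptor, was 9.91, 10.09 and 9.89 in the arrays labelled Lxn-/- and 10.02, 10.13 and 9.86 in WT, a change of -0.04 (SE 0.10). Il17ra, the shared chain of IL-17 receptors, was 10.88, 11.42 and 11.29 in the arrays labelled Lxn-/- and 11.35, 11.35 and 11.28 in WT, with array 1 lowest.

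Epor, the erythropoietin receptor, was 7.56, 7.50 and 7.37 in the arrays labelled Lxn-/-, against 7.46, 7.89 and 7.53 in WT. The groups overlapped, and the change was -0.15 (SE 0.13, adjusted p 0.535). Of 8 erythroid markers 7 had negative changes, 4 of them at an unadjusted p under 0.05, and 1 of the 8 lay below the guide. Over all features 9.23% were lower at that level, and 42.2% had positive changes. The markers' mean level was 8.46, 8.84 and 8.78 in arrays 1, 2 and 3 labelled Lxn-/- against 8.89 to 9.38 in WT, with array 1 lowest. Their part in the Epor value was not tested. The exception was Tfrc, the transferrin receptor, at 0.49 (SE 0.20, unadjusted p 0.0387).

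Counting receptors whose groups did not overlap gave 8 of 43 (18.6%), against 21.6% of all features. Of these 8, 6 were higher in the arrays labelled Lxn-/- (Csf1r, Il6st, Lifr, Il4ra, Ifnar2 and Ifngr2), where 8.54% of features were, and 2 were lower (Il3ra and Il9r), where 13% of features were. Ifngr2 is separate only before rounding, since array 1 labelled Lxn-/- and WT array 1 both read 10.72. The 34 receptors above the guide held 6 of the 8, a share of 17.6% beside 20.2% of all features above the guide.

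Array 1 labelled Lxn-/- read low for many receptors. It was the lowest of the 6 arrays for 16 of the 43 (37.2%), among them Kit, Flt3, Tek, Igf1r, Csf2ra, Il3ra, Il12rb1, Il12rb2, Ifngr1, Il10ra, Il18rap and Il17ra, while it was the lowest for 17.9% of all features. All 16 were above the guide, where it was the lowest for 47.1% of 34 receptors and 24.1% of features. Array 2 labelled Lxn-/- lay above the WT range for 20 of the 43 (46.5%) and below it for 5, against 27.4% and 37.2% of all features. For array 3 these counts were 17 above (39.5%) and 12 below (27.9%), against 28.2% and 40.3% of all features. Among the receptors above the guide, array 2 exceeded the WT range for 19 of 34 (55.9%), against 41.8% of features. These are counts without a test, and receptors that share a lineage are not independent of each other. Without array 1, 10 receptors had an unadjusted p under 0.05 (23.3%), beside 23.7% of all features.

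**Figure D3:**
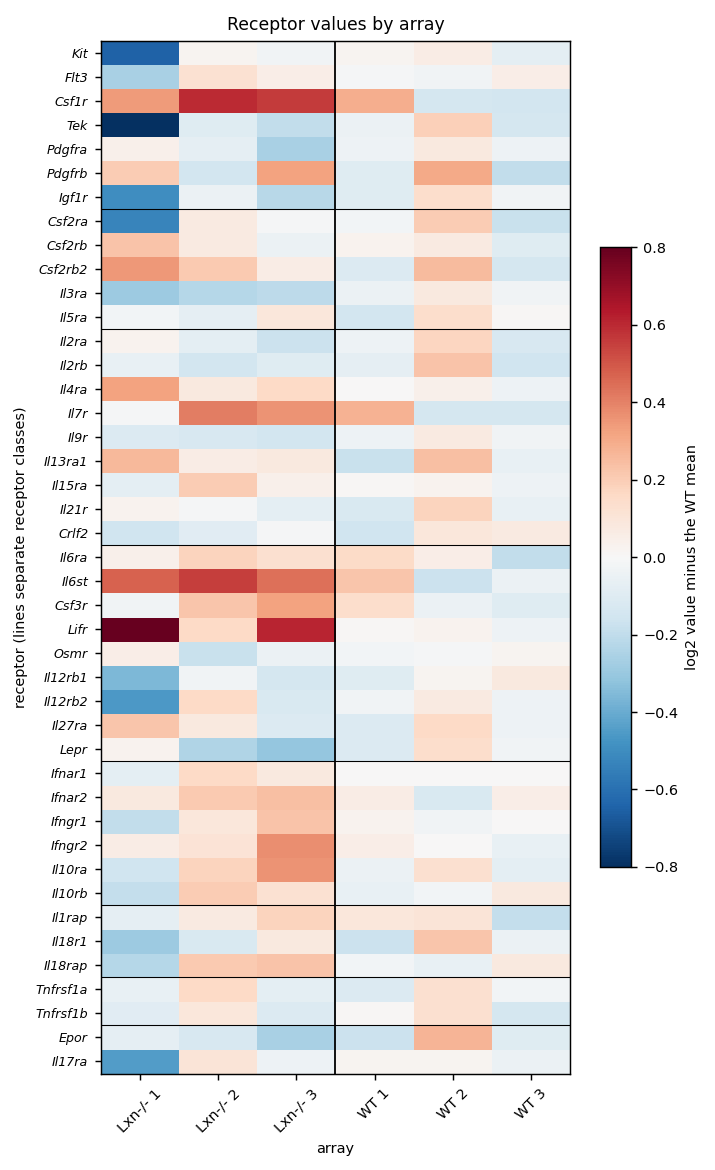
Log2 value of each of the 43 receptors minus its WT mean, for the 3 arrays labelled Lxn-/- (left) and the 3 WT arrays (right), with lines between receptor classes and a colour scale from -0.8 to 0.8. Array 1 labelled Lxn-/- is low for Kit, Tek, Igf1r, Csf2ra, Il12rb2 and Il17ra, where arrays 2 and 3 lie near the WT values or less far below them.

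With arrays left out, 3 of the 4 receptors at an unadjusted p under 0.05 held their size. These fits share arrays with the fit that picked the 4, so they are not independent of it. Leaving out each array in turn gave 0.40 to 0.60 for Il6st, 0.43 to 0.64 for Csf1r and -0.27 to -0.21 for Il3ra, and 0.38 to 0.79 for Lifr. Leaving out both arrays with Y-linked signal leaves 1 array labelled Lxn-/-, so that group then has no measured spread. The change was then 0.55 for Il6st, 0.60 for Csf1r, -0.23 for Il3ra and 0.16 for Lifr. Adjusted p values of Il6st, Csf1r and Il3ra stayed at 0.106 or above in every fit listed in the closing section.

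**Figure D4:**
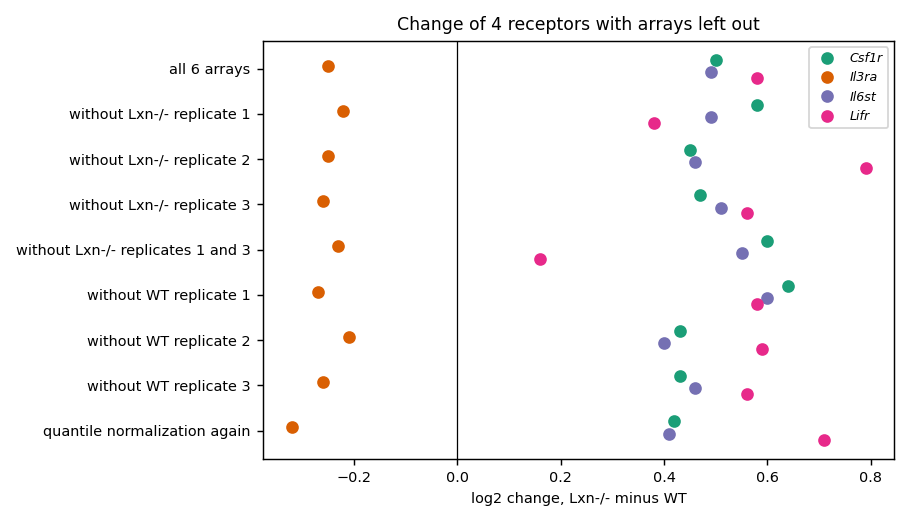
Log2 change, labelled Lxn-/- minus WT, of Csf1r, Il3ra, Il6st and Lifr with all 6 arrays, with arrays left out, and after quantile normalization was applied again. Lifr moves from 0.79 without array 2 labelled Lxn-/- to 0.16 without arrays 1 and 3, while Il6st and Csf1r stay between 0.40 and 0.64.

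The molecules that carry signals from these receptors were summarised in lists. Over all tested features 14.3% had an unadjusted p under 0.05, with 5.06% higher and 9.23% lower. Of 9 measured JAK and STAT genes, none had an unadjusted p under 0.05, with a median change of -0.018, and 0.099 without array 1 labelled Lxn-/-. The smallest p values were those of Jak1 (-0.12, SE 0.10), which serves gp130, common gamma and interferon receptors, Stat2 (-0.12, SE 0.15) and Stat6 (0.06, SE 0.08), which acts after IL-4. Of 18 adaptor, PI3K and Ras pathway genes, 1 (5.56%) had a lower mean at that level. It was Irs1 (-0.23, SE 0.10), an adaptor of insulin-like growth factor and IL-4 receptors, and it lay below the guide. Map2k1 (0.25, SE 0.12) and Sos1 (0.17, SE 0.10) did not reach it, and the median was 0.071. Of 28 negative regulators, 2 (7.14%, beside the 14.3% of all features) had an unadjusted p under 0.05, both with higher means. Both are tyrosine phosphatase genes whose products act on JAK and STAT proteins. They were Ptpn1 (0.27, SE 0.11) and Ptpn2 (0.29, SE 0.12), and the median of the list was 0.017. Socs3, which blocks gp130 signalling, was 9.13, 8.52 and 8.95 in the arrays labelled Lxn-/-, against 8.60, 8.63 and 8.52 in WT, higher only in arrays 1 and 3 (0.28, SE 0.15).

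Target genes of receptor signalling had a median change of 0.110 over 15 members, with 13 positive and none at an unadjusted p under 0.05. All 15 lay above the guide, where 62.0% of all features had positive changes and the median change was 0.047. Fos (0.44, SE 0.22), Id1 (0.36, SE 0.23) and Nfil3 (0.19, SE 0.12) had the smallest p values. The list's median was -0.062 without arrays 1 and 3 labelled Lxn-/-. Of 15 IL-1 and TNF receptor signalling genes, 1 (6.67%, beside 14.3% of all features) was at that level, with a higher mean. It was Myd88, the adaptor of IL-1 receptors (0.25, SE 0.10). The next smallest p values were those of Tradd (0.12, SE 0.09) and Traf6 (0.10, SE 0.08), and the list's median was 0.049. No gene of any list passed an adjusted p of 0.05.

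Of 42 ligand genes, 15 lay above the guide, and 2 had higher and 8 lower means at an unadjusted p under 0.05. That is 23.8% of the list, beside 14.3% of all features and 17% of those at or below the guide. Of these 10 ligands, Csf2, Il10, Ifnb1, Tslp, Igf2 and Lep lay below the guide, where features as a whole ran lower in the arrays labelled Lxn-/-. Csf2, which encodes GM-CSF, had the smallest p, at 5.16 ± 0.06 in the arrays labelled Lxn-/- and 5.57 ± 0.16 in WT. Igf1 (-0.38, SE 0.13) and Il13 (-0.28, SE 0.10) followed. The ligands' median was -0.089, and 0.013 after quantile normalization was applied again. The 31 measured other receptors of the same families, none of them among the 46, had 1 higher and 3 lower means at that level. These made up 12.9% of that list, beside 14.3% of all features. The smallest p values there were those of Axl (-0.46, SE 0.18), Tnfrsf9 (-0.26, SE 0.10) and Il22ra1 (-0.32, SE 0.13).

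**Figure D5:**
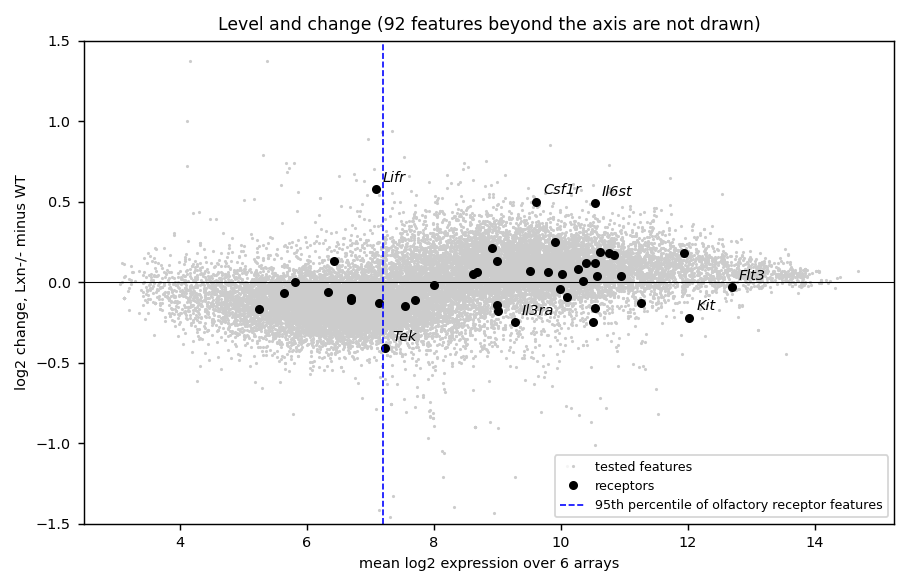
Mean log2 expression over 6 arrays on the horizontal axis against the log2 change, labelled Lxn-/- minus WT, for all tested features (grey, 92 beyond the axis not drawn) and the 43 receptors (black). The dashed line marks the olfactory receptor guide at 7.20, below which most features lie under 0, and Lifr lies just left of it.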

How the data were processed

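RNA of sorted multipotent progenitors was labelled from total RNA and read on Affymetrix MoGene 1.0 ST arrays, as the series text states. The authors deposited log2 expression values normalized by RMA, per the series text, and the submitters' processing notes name Partek 6.0. Values of 2.93 to 14.78 were taken as log2 from this range. Quantile normalization applied again, to the tested features only, changed the counts of calls. Whether the deposited values as a whole shared 1 distribution was not tested, and total RNA per cell was not measured. No genome build is named for the arrays' features in the sources used.

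Gene names came from the array's annotation of probes, updated against the GRCm38.p6 gene table (21789 features with 1 symbol, of which 21698 matched, 1621 with several, which were left unnamed, and 12147 with none). The 23410 features with a symbol were fitted in R 4.3.3 by lmFit and eBayes of limma 3.58.1 (two-sided) on all 6 arrays, with Benjamini-Hochberg adjustment over all of them. Replicates are separate pools by label, and p-values measure the spread between pools. The fit was tested on simulated data. The receptors, lists and tests were chosen with earlier results of these data known. Receptors given array by array are Kit, Flt3, those with an unadjusted p under 0.05 or a change of at least 0.5, and otherwise the smallest p of a class. Tek, Igf1r, Csf3r, Csf2ra, Csf2rb2, Il7r, Il9r, Ifngr2, Il12rb2, Il17ra and Socs3 were given so after their values were seen. Up to 3 genes per pathway list were named by smallest p. Tfrc, Cd34, Tgm2, the mast cell and basophil markers, the ligand genes below the guide and the macrophage markers were named from the lists after their values were seen. Motifs were chosen after the values were seen. Python 3.11.15 with matplotlib 3.10.9 drew the figures.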

Additional observations from a re-analysis of the deposited data

How the results depend on the processing

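The 6 arrays and the lack of a detection call per feature limit what can be said of the 9 receptors below the signal guide and of changes under about 0.3. Other fits left out single arrays or both arrays 1 and 3 labelled Lxn-/-, added a replicate block, repeated quantile normalization, centred arrays on the median, kept features above the median level, weighted arrays, set trend and robust in eBayes, took every feature of the table, or averaged a gene's features. The last of these cannot move a receptor's change, since each has 1 feature. Features above the median level held 31 of the 43 receptors and not Lifr.

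The count of features passing an adjusted p of 0.05, which was 0 with all arrays, was 0 to 145 with 1 array left out, 1 with the replicate block and 3 without arrays 1 and 3 labelled Lxn-/-. The count at an unadjusted p under 0.05, 3346 with all arrays, was 1628 to 5541 with 1 array left out (1904 without WT array 2), 1812 after quantile normalization, 1356 among features above the median level, where fewer were tested, and 5614 with array weights. Receptors passing an adjusted p of 0.05 were 0 to 1 with 1 array left out, the 1 being Lifr without array 2 labelled Lxn-/-, and 0 under every other alternative run. Receptors at an unadjusted p under 0.05, 4 with all arrays, were 4 to 10 with 1 array left out (10 without array 1 labelled Lxn-/-, 7 without array 2), 2 without arrays 1 and 3 labelled Lxn-/-, 7 after quantile normalization, 8 with array weights and 6 with the replicate block. The same 4 receptors were kept in all fits but 2, which were the fit without WT array 2 (3 kept) and the fit without arrays 1 and 3 labelled Lxn-/- (2 kept), and among features above the median level the 3 that were tested were kept. The median change of the receptors was 0.075 without arrays 1 and 3 labelled Lxn-/-. That fit leaves 1 array labelled Lxn-/-, so its counts above do not measure any spread within that group. The cause of these differences was not tested.

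Small changes turned sign. Flt3 ranged from -0.11 to 0.09 with 1 array left out (0.09 without array 1 labelled Lxn-/-) and was at 0.12 without arrays 1 and 3, 0.03 after median centring and 0.04 with array weights. Tnfrsf1b ranged from -0.11 to 0.03 with 1 array left out (0.00 without array 3 labelled Lxn-/-, 0.03 without WT array 2) and was at 0.09 without arrays 1 and 3, 0.02 after median centring and 0.02 with array weights. Kit was at 0.02 without arrays 1 and 3. Same-numbered arrays showed little shared deviation (correlations of 0.076, -0.008 and -0.006 for numbers 1, 2 and 3), and not every array correlated best with its own number. With 3 arrays per group, and arrays 1 and 3 labelled Lxn-/- apart from array 2, these values cannot decide whether the replicate numbers pair the samples.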
